A study of Homo sapiens and Mus musculus with 33 samples.

Results

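Broad acylation domains of HCT116 cells, a human colon carcinoma line, were taken as the peaks of H3K18 acylation that spanned at least 10000 bp. The single peak list of these cells held 40266 peaks, and 1153 of them (2.86%) met this width. They covered 20.2 Mb, or 18.2% of all peak bases. Cells had been given 5 µM MS275 (entinostat, an inhibitor of class I histone deacetylases) or its solvent DMSO for 18 h. Each treatment had 3 chromatin immunoprecipitation (ChIP) libraries for crotonylation of histone H3 at lysine 18 (H3K18cr), 3 for acetylation of the same lysine (H3K18ac), 1 input library of chromatin without an antibody, and 4 RNA libraries. All groups were of this one tumour-derived line, so its gains of chromosome segments are shared by every sample. The marks were read with different antibodies, and both were counted over the same peaks.

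Acylation of lysine 18 neutralises the positive charge of the histone tail and marks active promoters and enhancers. Acetyl and crotonyl groups are placed by the same kind of enzyme, chiefly p300 and CBP, and are removed by class I histone deacetylases. Both draw on acyl-coenzyme A, which links them to the metabolism of the cell. Wide stretches of acylated chromatin are known for lying at genes that define a cell type, where many enhancers sit close together.

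The promoters of 4 transcription factor genes that start inside a domain are shown because the results below return to these genes. Each is the 150 bases before the RefSeq start of the gene on GRCh38.p14, on the plus strand. Capitals mark 4 motifs on either strand, namely the GC box GGGCGG, the CCAAT box CCAAT, the TATA box TATAAA and the AP-1 element TGANTCA.
TCF7L2, chr10:112950097-112950246: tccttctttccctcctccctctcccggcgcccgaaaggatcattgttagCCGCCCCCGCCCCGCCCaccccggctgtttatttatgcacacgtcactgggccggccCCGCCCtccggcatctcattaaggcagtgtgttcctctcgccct
JUNB, chr19:12791336-12791485: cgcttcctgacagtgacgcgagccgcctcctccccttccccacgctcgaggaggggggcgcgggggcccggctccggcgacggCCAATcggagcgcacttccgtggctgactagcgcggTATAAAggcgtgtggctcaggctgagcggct
HES1, chr3:194135998-194136147: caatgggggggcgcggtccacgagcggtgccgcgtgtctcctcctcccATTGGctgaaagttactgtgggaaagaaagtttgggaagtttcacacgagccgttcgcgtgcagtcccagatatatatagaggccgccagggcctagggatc
ID1, chr20:31605139-31605288: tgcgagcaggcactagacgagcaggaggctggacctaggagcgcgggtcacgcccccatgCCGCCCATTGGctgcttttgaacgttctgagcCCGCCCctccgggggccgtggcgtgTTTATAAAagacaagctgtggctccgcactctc
TCF7L2 held 4 GC boxes, JUNB 1 CCAAT box and 1 TATA box, HES1 1 CCAAT box, and ID1 2 GC boxes, 1 CCAAT box and a palindrome that reads as a TATA box on both strands. In ID1 a GC box and the CCAAT box abut.

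Promoters of the same 150 bases could be read for 274 of the 648 genes that start in a domain. The GC box was found in 60.6% of these, against 62.2% of 9226 promoters of genes that start in a narrower peak and 36.7% of all 27305 promoters in the RefSeq table. The shares for the CCAAT box were 28.5%, 27.1% and 24.4%. The TATA box was in 9.49% of promoters in domains and 2.85% of those in narrower peaks, with 7.05% over all promoters. The AP-1 element, the site bound by JUNB and FOSL1, was in 4.01%, 2.36% and 4.14%. Both peak classes had promoters rich in G and C, with a median of 68.3% in domains and 68.7% in narrower peaks. Only the TATA and AP-1 letters were more frequent in domains than in narrower peaks by more than 1.5 times, and no test was made of these shares.

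Peaks were measured in steps of 150 bp. The domains ranged from 10050 to 132750 bp with a median of 13950 bp, 482 reached 15000 bp and 26 exceeded 50 kb. The 29 narrowest domains, all of 10050 bp, had a median of 51.2 H3K18cr reads per kb with DMSO and a median log2 ratio to input of 1.42. The 39 peaks one step below the limit, of 9900 bp, had 47.2 reads per kb and a ratio of 1.39. Domains at UCHL5 and TROVE2, AK5 and GNG12 lay just inside the limit, and peaks at S100A10 and PYROXD2 just outside. The ranges on either side of the limit overlapped. Many domains adjoined others, and 176 touched another peak with no gap. Joining touching peaks would have given 1260 regions of at least 10000 bp.

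ChIP values are reads in a peak scaled by the submitters to the largest library. They are relative to the total of each library, so they show how reads are shared among regions and cannot show a change in the total H3K18cr or H3K18ac of the cells. For these cells the study reported more H3K18cr with MS275 by western blot, and at chosen promoters and repeats by ChIP-qPCR. ChIP libraries held 2236551 to 5730094 reads in peaks, the inputs 1374609 and 1550122, and the RNA libraries 35608533 to 53415604 counts. Some libraries stood apart within their group. H3K18cr library 3 with DMSO had a median of 46.9 reads per kb in domains, against 54.7 and 53.4 in the other 2, and library 3 with MS275 43.3, against 38.7 and 38.02. The H3K18ac libraries had medians of 39.8, 44.6 and 58.5 reads per kb with DMSO and 42.8, 35.2 and 34.0 with MS275. Counts of calls and several named calls are also given with single libraries left out. RNA showed an epithelial line, with 9 of 10 epithelial markers expressed at a summed 4089 to 5591 CPM (counts scaled to a common library total) with DMSO and 5177 to 6098 with MS275. Of 7 immune markers 2 were expressed and CD14 was at 0, and of 7 stromal and endothelial markers 2 were expressed. The summed immune level was 6.93 to 10.6 CPM with DMSO and 11.1 to 18.0 with MS275, and the stromal level 8.34 to 11.3 and 17.9 to 21.4.

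The domains were unevenly placed in the genome. Chromosome 17 held 191, chromosome 8 held 151, chromosome 10 held 131 and chromosome 16 held 47. Together these 4 chromosomes carried 520 domains (45.1%) but 15.6% of all peaks. On chromosome 17, 11.4% of peaks were domains, against 2.00% on chromosome 1. HCT116 cells are known to carry extra copies of segments on these 4 chromosomes.

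The input library followed the same segments. Bins of 5 Mb were called high-input where the narrower peaks of the bin had a median input with DMSO of at least 1.2 times the median of all narrower peaks, 16.9 reads per kb, a rule chosen after seeing the data. All 28 such bins lay on chromosomes 8 (13 bins), 10 (5), 16 (2) and 17 (8), and each held a domain. In them, 420 of 1825 peaks were domains (23.0%, 95% Wilson interval 21.1 to 25), against 732 of 38276 peaks in the other 515 bins (1.91%, interval 1.78 to 2.05). The intervals cover counting error only. The remaining bins of the same chromosomes were like the rest of the genome, with 1.17% to 2.90% of peaks being domains. Outside the 28 bins 260 bins held a domain, so wide peaks were not confined to them. Copy number itself was not measured here, and its part in the width of peaks was not tested.

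**Figure D1:**
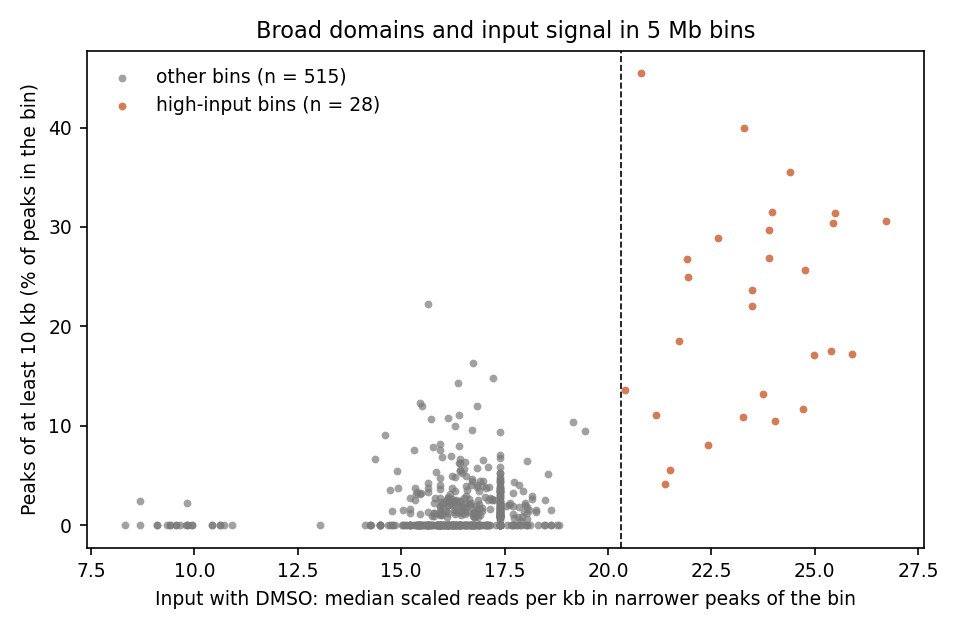
Each point is a 5 Mb bin of the genome, with its median input in narrower peaks (scaled reads per kb, DMSO) on the horizontal axis and the percentage of its peaks that are at least 10 kb wide on the vertical axis. The dashed line is the limit for a high-input bin, 20.3 reads per kb, and the 28 bins to its right (orange) hold 420 of the 1153 domains.

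Both marks stood above input in most domains, and less so in the high-input bins. With DMSO the median domain had 51.9 H3K18cr and 47.9 H3K18ac reads per kb, over 19.0 input reads. Narrower peaks had 34.2, 32.5 and 16.9. The log2 ratio to input was 1.44 for H3K18cr and 1.34 for H3K18ac in domains, and 1.14 and 1.08 in narrower peaks. These levels are given as a description, since peaks were called from ChIP signal. Domains in high-input bins had H3K18cr and H3K18ac ratios of 0.80 and 0.68, and the other 733 domains 1.70 and 1.56. Of the 107 domains with an H3K18cr ratio under 0.5, 103 were in high-input bins. Of the 211 with a ratio of 2 or more, 14 were.

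**Figure D2:**
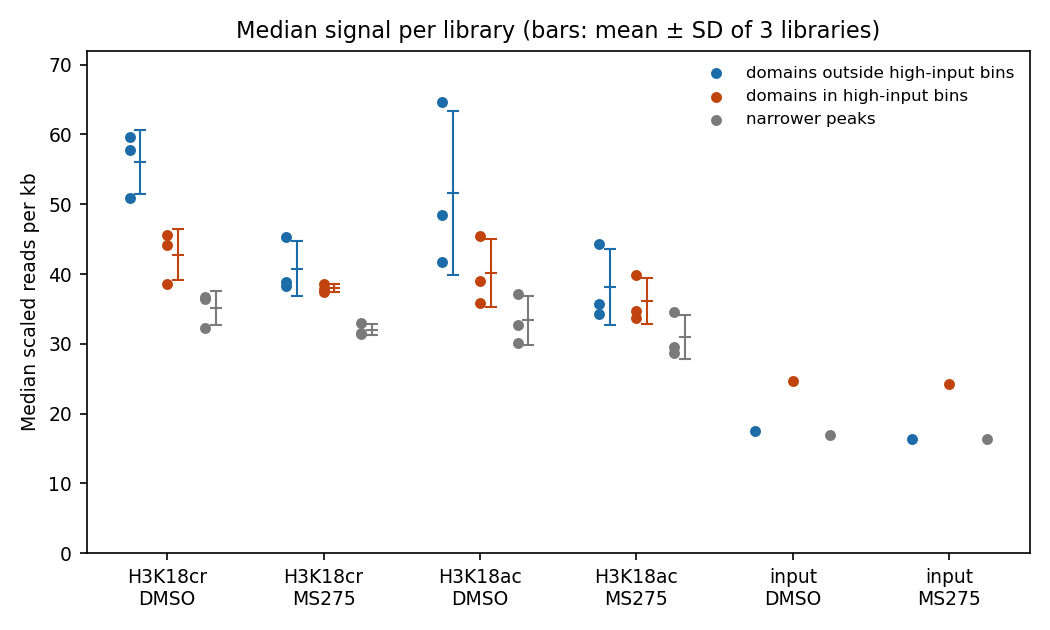
Points are the median scaled reads per kb of each library in the domains outside high-input bins (blue), the domains in them (orange) and the narrower peaks (grey), and bars are the mean ± SD of 3 libraries (inputs have 1). Domains outside high-input bins have the highest H3K18cr with DMSO, 50.8 to 59.7 reads per kb, while the input is highest in the high-input bins, 24.6 and 24.3.

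The 6 domains with the highest H3K18cr ratio to input lay at promoters or beside microRNA and kinase genes. The first, on chr7:5417101-5431050 at the start of TNRC18, held 6 gene starts, the most of any domain, and had a ratio of 3.12. Its 3 DMSO libraries gave 158.1, 171.1 and 188.7 H3K18cr reads per kb, over 19.9 of input. A domain upstream of MIR23A on chr19:13837951-13860300 had a ratio of 3.11. MIR23A encodes a microRNA of a small cluster of microRNA genes. The others were at CRIP1 (3.00), BCOR, which encodes a corepressor bound to BCL6 (2.96), near MKNK2, a kinase of the translation factor eIF4E (2.87), and at RP13-766D20.2 beside ACTG1, the gene of cytoplasmic gamma actin (2.86). In CpG content these domains were rich, with 62.9 CpG per kb at TNRC18 and 55.8 at BCOR against a median of 12.4 over all domains.

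At the other end, 6 domains had H3K18cr no more than 0.11 above input on the log2 scale, and all 6 were in high-input bins. One lay within PRKCA, the gene of protein kinase C alpha, on chr17:66679351-66690600. Its H3K18cr was 25.7, 25.7 and 28.0 reads per kb with DMSO, over 26.3 of input. The log2 ratio was 0.0092, a level equal to that of input. The others were within MSI2, which encodes an RNA-binding protein of stem cells (0.06), within TCF7L2 (0.10), at BZRAP1 and MIR142 (0.11), and in a pair of intervals without a gene.

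H3K18cr and H3K18ac covered the domains alike. Their levels per kb with DMSO correlated over the 1153 domains (Spearman's rho 0.95), a description, since both are read over the same intervals with shared copy number and base composition. H3K18ac was lower than H3K18cr by a median of 0.11 on the log2 scale, against 0.03 over all peaks. limma called 0 of 40052 peaks as different between the marks at an adjusted p under 0.05 (0% background), with 2217 peaks and 18 domains under an unadjusted 0.05. With trimmed-mean (TMM) scaling it called 157 peaks, of which 1 was a domain.

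The domains with the largest differences were of distinct genes, though none passed the test. H3K18ac exceeded H3K18cr most at NFKB2, an NF-kappaB subunit (log2 difference 0.46, adjusted p 0.89 in limma), HES4 and ISG15 (0.41), RAD51B (0.38), UCHL5 and TROVE2 (0.37), NR4A1 (0.35) and MAP4 (0.34). NR4A1 encodes an orphan nuclear receptor of the immediate early response, and ISG15 an interferon-induced ubiquitin-like protein. H3K18cr exceeded H3K18ac most at a site near RP6-99M1.1 on the X chromosome, PHC2, a Polycomb subunit (-0.64), TRIOBP (-0.61), DHRS3, a retinal reductase (-0.60), near AL391056.1 (-0.58) and NT5E, the ectoenzyme CD73 (-0.58). At NT5E the H3K18cr libraries gave 45.0, 76.7 and 80.5 reads per kb and the H3K18ac libraries 35.0, 38.9 and 61.5, so the marks overlapped.

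Relative to the library total, H3K18cr was lower with MS275 in many domains. All 1153 passed the filter on low values, and limma called 527 lower (45.7%, against a background of 23% of 40026 peaks) and 0 higher (background 0.232%). The median change was -0.37 on the log2 scale over domains and -0.20 over all peaks. In 646 domains (56.0%, background 29.8%) each of the MS275 libraries was below each of the DMSO libraries. Counts moved with the library left out. They were 329, 333 and 738 without DMSO library 1, 2 or 3 (background 15.2%, 15.9% and 31.3%), and 304, 297 and 640 without MS275 library 1, 2 or 3 (background 15.5%, 14.8% and 22.9%), or 25.8% to 64.0% of the domains. TMM scaling moved the median of all peaks from -0.20 to 0.04 and gave 284 domains lower (24.6%, background 11.1%) and 32 higher (2.78%, background 1.94%). Relative to the median of all peaks the domains lay at -0.17 with the deposited scaling and -0.18 with TMM.

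With the deposited scaling H3K18ac was called lower in fewer domains than H3K18cr. limma called 211 lower (18.3%, background 16.3%) and 0 higher (background 0.264%), a share near that of all peaks. The study tested these ChIP libraries as pairs. Blocked on the replicate number, limma called 14 domains lower (1.21%, background 2.01%) and 0 higher (background 0.0224%) in H3K18ac, and 508 lower (44.1%, background 26.1%) and 0 higher (background 0.515%) in H3K18cr. The deviations of the H3K18ac libraries did not follow their numbers. The median H3K18ac change was -0.34, against -0.19 over all peaks. In 360 domains (31.2%, background 23%) each MS275 library was below each DMSO library. The call rested on single libraries: it was 436, 60 and 115 without DMSO library 1, 2 or 3 (37.8%, 5.2% and 9.97%, background 23%, 7.57% and 9.13%). Without MS275 library 1, 2 or 3 it was 236, 26 and 28 (20.5%, 2.25% and 2.43%, background 19.8%, 3.58% and 4.71%). With TMM, which moved the median of all peaks to 0.07, 319 were lower (27.7%, background 16.5%) and 99 higher (8.59%, background 4.75%), and relative to all peaks the domains lay at -0.15 with the deposited scaling and -0.16 with TMM. The order of the marks turned with the scaling, with 319 domains lower in H3K18ac and 284 in H3K18cr under TMM, and 277 and 258 in DESeq2 (background 24.7% and 20.3% of the peaks it tested). DESeq2 called 66 and 31 domains higher (background 1.67% and 0.723%). Both marks were called lower in 207 domains (18.0%, against 14.2% of all peaks). The difference between the marks in the MS275 effect, tested by limma as an interaction, was called in 0 of 40266 peaks (739 peaks and 0 domains under an unadjusted 0.05), with a median of 0.02 over domains.

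Among domains, calls were fewer in high-input bins. There 86 of 420 domains had lower H3K18cr (20.5%) with a median change of -0.16, and elsewhere 441 of 733 (60.2%) with -0.48, against 23% of all peaks. Narrower peaks did not show this order, with 23.8% lower in high-input bins and 22.3% outside them. For H3K18ac the counts were 42 (10.0%, median -0.12) and 169 (23.1%, median -0.45), and for narrower peaks 16.2% in either place. Under TMM the median H3K18cr change in high-input bins was 0.08, so its direction depends on the scaling, while that of the other domains stayed below 0 at -0.24. The same held for H3K18ac, with 0.13 in high-input bins and -0.20 in the other domains under TMM. Narrower peaks that hold a gene start had a median H3K18cr change of -0.57 and 59.6% called lower, and those without one -0.08 and 8.58%. Under TMM these medians were -0.33 and 0.16, so the second changed sign. Among domains with a gene start 255 of 419 (60.9%) were called lower, with a median of -0.48.

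The relative fall in H3K18cr followed how much H3K18ac a domain carried. Domains were ranked by the log2 ratio of H3K18ac to input with DMSO, values taken from libraries that the H3K18cr change does not use, and cut into 4 groups of equal number. The median H3K18cr change was -0.04, -0.29, -0.47 and -0.71 from the lowest to the highest group, and 2, 59, 189 and 277 domains were called lower. The reverse ranking, by H3K18cr over input, gave H3K18ac changes of -0.01, -0.26, -0.44 and -0.67. Spearman's rho was -0.90 and -0.82 over 1153 domains, which share libraries and input and are not independent. Over narrower peaks the first was -0.58. Within high-input bins the medians of such groups ran from 0.03 to -0.48, and outside them from -0.22 to -0.76. Between width and the change rho was -0.07.

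**Figure D3:**
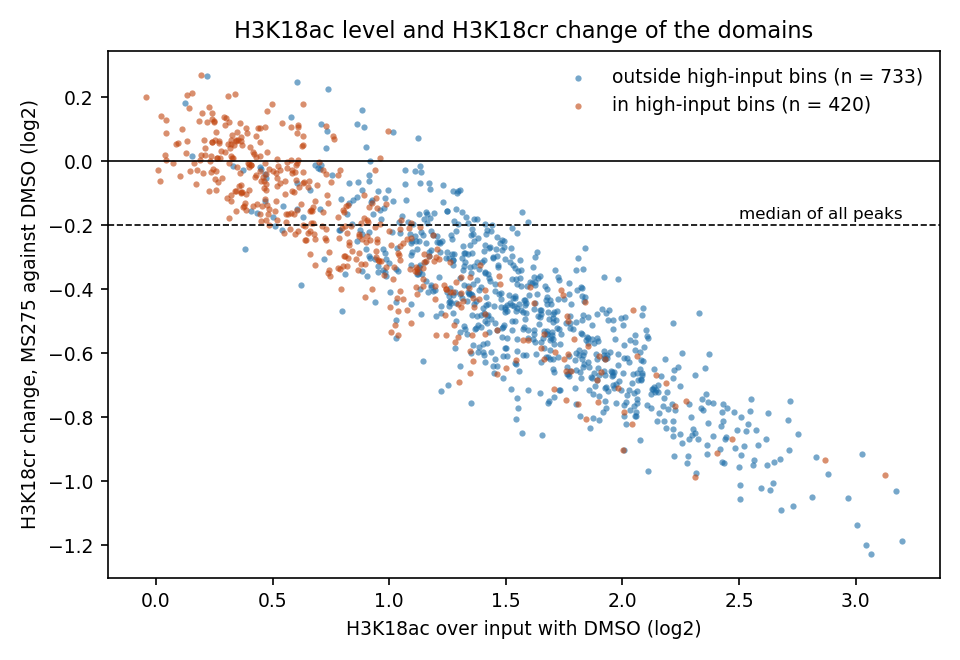
Each point is 1 of the 1153 domains, with the log2 ratio of H3K18ac to input with DMSO on the horizontal axis and the log2 change of H3K18cr with MS275 on the vertical axis, in high-input bins (orange) and outside them (blue). The points fall from near 0 at a ratio of 0 to about -1 at a ratio of 3, and the dashed line is the median change of all peaks, -0.20.

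The percentage of peak reads that fell in domains as a whole gave no difference that passed a test. H3K18cr reads in domains were 22.2% ± 0.10 (SD, n = 3) with DMSO and 21.4% ± 0.66 with MS275 (exact permutation test, two-sided p = 0.3, where 0.1 is the smallest p that 3 against 3 allow). H3K18ac reads were 20.7% ± 0.25 and 20.9% ± 0.21 (exact permutation p = 0.4). The parts lay apart in opposite directions. The H3K18cr share in high-input bins was 7.46% ± 0.05 with DMSO and 8.13% ± 0.10 with MS275, that in the other domains 14.7% ± 0.06 and 13.32% ± 0.76, and neither pair of groups overlapped. For H3K18ac the same shares were 7.03% ± 0.26 and 7.90% ± 0.19, and 13.7% ± 0.51 and 12.997% ± 0.20. The log2 ratio of high-input to other domains was larger with MS275 by 0.27 for H3K18cr and 0.24 for H3K18ac. Against reads in narrower peaks that hold a gene start, the log2 ratio of domains was higher with MS275 by 0.16 in H3K18cr and 0.28 in H3K18ac, without overlap. With the domains of high-input bins left out it was higher by 0.19 in H3K18ac, without overlap, and by 0.06 in H3K18cr, where the groups overlapped (exact permutation p = 0.2). The other comparisons of shares and ratios in these bins and domains gave the smallest exact permutation p of 0.1 for 3 against 3, and a design of this size cannot reach 0.05.

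The widest domain lay on chr4:30736801-30869550 within PCDH7, a protocadherin of cell adhesion, with the start of RP11-619J20.1 inside. It gave 95.2, 99.4 and 99.8 H3K18cr reads per kb with DMSO and 46.1, 46.5 and 65.5 with MS275 over 18.6 of input, and changed by -0.92 (SE 0.16, limma adjusted p 9.8e-05). H3K18ac was 73.5, 84.1 and 129.6 reads per kb, and 50.4, 52.0 and 66.2, a change of -0.74 (SE 0.19, adjusted p 0.0023). In both marks each MS275 library was below each DMSO library, as in 56.0% of all domains in H3K18cr and 31.2% in H3K18ac. The H3K18ac call was lost without MS275 library 2 or 3 and with the replicate block (adjusted p 0.061), and the change ran from -0.90 to -0.50 over the libraries left out. The domain at LIF, a cytokine of the interleukin 6 family, on chr22:30186901-30264000 was similar. H3K18cr there was 82.7, 91.4 and 95.9 with DMSO and 46.8, 49.3 and 64.1 with MS275, a change of -0.76 (SE 0.15, adjusted p 0.0004). The domain also overlapped the neighbouring gene OSM, another cytokine of that family, whose start lies outside it.

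Among the other 8 widest domains, H3K18cr was called lower at PHLDB2 and ABHD10 (-0.51), CASC8 (-0.43), VTI1A (-0.58), PDP1, a phosphatase of pyruvate dehydrogenase (-0.42), and ARHGAP18, a GTPase-activating protein (-0.61). It did not pass the test at NSMCE2 (-0.36, limma adjusted p 0.086) or PDE4B, a cyclic AMP phosphodiesterase (-0.24, adjusted p 0.30). The calls at ABHD10, CASC8 and PDP1 were lost in 4 of 6 fits, without DMSO or MS275 library 1 or 2, and also with the replicate block. That at VTI1A was lost without MS275 library 1 or 2 and that at ARHGAP18 without MS275 library 1. Over all libraries left out the changes ran from -0.75 at ARHGAP18 to -0.35 at PDP1. TCF7L2 was unlike the rest. Its domain of 85950 bp on chr10:113011951-113097900, in a high-input bin, gave 45.2, 48.6 and 49.9 reads per kb with DMSO and 49.9, 50.7 and 51.9 with MS275, over 33.2 of input. The change there was 0.09 (SE 0.14, adjusted p 0.76) and the ratio to input 0.53.

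**Figure D4:**
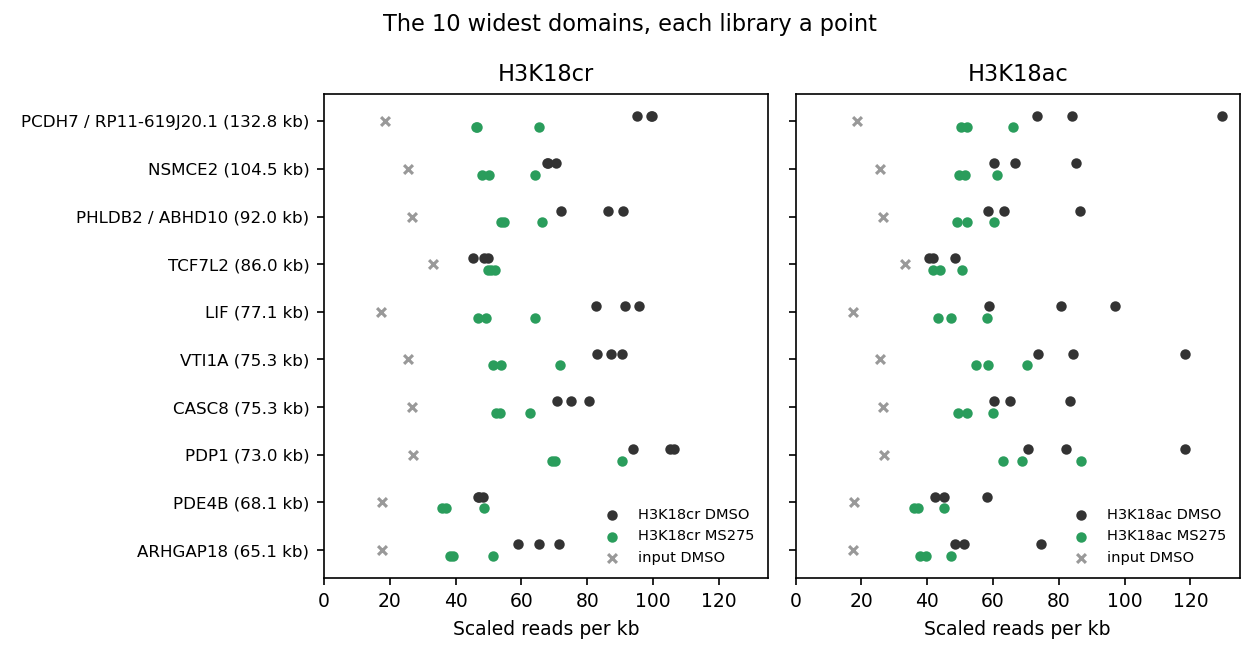
Points are scaled reads per kb of each library in the 10 widest domains, with H3K18cr on the left and H3K18ac on the right, DMSO in black, MS275 in green and input with DMSO as crosses. In H3K18cr the groups separate at PCDH7, LIF, VTI1A and 5 others, and overlap at TCF7L2 and PDE4B. Over all domains each MS275 library was below each DMSO library in 56.0%.

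The largest falls in H3K18cr were at domains of high ratio to input. CRIP1 and C14orf80 on chr14:105479701-105492750 led, CRIP1 being a LIM protein of the intestine. Its H3K18cr was 146.5, 155.2 and 155.3 reads per kb with DMSO and 55.3, 59.7 and 83.3 with MS275, and the change was -1.23 (SE 0.15, limma adjusted p 1.4e-05). MNT, a repressor that competes with MYC for MAX, on chr17:2391151-2404050 changed by -1.20, the domain near MIR23A by -1.19, BCOR by -1.14, a domain near C2orf57 by -1.09, and MBNL2, a splicing factor, by -1.08. At MNT the DMSO libraries gave 119.3, 121.8 and 165.1 reads per kb and those with MS275 48.0, 52.7 and 78.3. All 6 separated between treatments, as did 56.0% of all domains, and they were picked for the size of the fall. The largest falls in H3K18ac shared 4 of these (CRIP1 -1.30, MNT -1.30, BCOR -1.23 and near MIR23A -1.21) and added HES4 and ISG15 (-1.28) and NR4A2, an orphan nuclear receptor like NR4A1 (-1.22).

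Gene starts lay in a minority of domains, a larger share than of narrower peaks, but with fewer starts per base. Starts of the genes in the RNA table lay inside 419 of 1153 domains (36.3%, Wilson interval 33.6 to 39.2), against 10480 of 39113 narrower peaks (26.8%). A further 520 domains (45.1%) overlapped a gene without its start, and 214 (18.6%) lay outside genes. The domains are several times wider than narrower peaks, whose median was 1950 bp, and these shares were not adjusted for it. Per base the order turned, with 648 genes that start in 20.2 Mb of domains and 13725 in 90.8 Mb of narrower peaks. Of the 419, 257 held 1 start and 48 held 3 or more. Domains with a start had fewer CpG than narrower peaks with one, 19.7 per kb against 45.6. Some genes were overlapped by several domains, and 35 by 4 or more.

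The 648 genes that start in a domain were 1.81% of the 35805 in the table and 2.81% of expressed genes. Of them 371 (57.3%) were expressed, meaning at least 1 CPM in at least 4 libraries, against 76.8% of genes that start in a narrower peak and 10.7% of those in no peak. Exon lengths were matched for 61.0% of the 648, so a comparison per length over all of them is void. It was made over the 339 of 371 expressed genes with a length. Their median level with DMSO was 3.59 ± 0.17 (SD, n = 4) as log2 of CPM per kb of exon plus 0.1, against 2.54 ± 0.17 for narrower peaks. On the linear scale the medians were 12.4 and 5.88 CPM per kb, and 2.13 for expressed genes in no peak. Within domains the level differed by bin, over all genes with a length, expressed or not. The median with DMSO was 5.11 CPM per kb in high-input bins (59.3% matched) and 11.6 outside them (62.0% matched). All 4 libraries with DMSO gave the same order.

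Transcription factors of the intestinal epithelium were among the genes in domains. Of 44 in the list 9 started in a domain (20.5%, against 1.81% of all genes and 2.81% of expressed genes), in a list chosen with earlier results of these data known, so the share is a description. Of the rest, ELF3, GRHL2, RUNX1 and TEAD1 overlapped one elsewhere. The widest was at EHF, an ETS factor of epithelia, with 48300 bp, followed by TCF7L2, the nuclear partner of beta-catenin (34200 bp at its start), MYC (26700 bp), FOSL1 (25800 bp), SOX9 (19950 bp), JUNB, HES1, ID3 and ID1. H3K18cr was called lower in 7 of these 9 domains, against 60.9% of all domains with a gene start and 59.6% of narrower peaks with one. It was not called at MYC (-0.32, limma adjusted p 0.13) or SOX9 (-0.34, adjusted p 0.099), both in high-input bins. The call at EHF was lost without DMSO or MS275 library 1 or 2 (-0.54 to -0.36) and with the replicate block.

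The domain of FOSL1, an AP-1 subunit, on chr11:65895301-65921100 gave 88.4, 114.0 and 123.6 H3K18cr reads per kb with DMSO and 57.3, 57.6 and 66.0 with MS275 (change -0.84, SE 0.15, limma adjusted p 0.00016). At JUNB, the other AP-1 gene, the values were 104.5, 120.0 and 126.5, and 63.4, 63.7 and 82.5 (-0.75). ID1, which sequesters basic helix-loop-helix factors, changed most of the 9, from 112.6, 119.4 and 126.4 to 48.8, 50.3 and 82.9 (-1.02). HES1, a target of Notch, went from 75.3, 84.6 and 92.5 to 46.5, 50.04 and 56.5 (-0.72). In all 4 each MS275 library was below each DMSO library, as in 66.6% of all domains with a gene start. At the start of TCF7L2, whose promoter holds 4 GC boxes and which is also in a high-input bin, the values were 77.2, 95.3 and 101.6 with DMSO and 62.7, 65.1 and 67.9 with MS275 (-0.48, adjusted p 0.016), unlike the domain further inside the gene. That call was lost without DMSO or MS275 library 1 or 2 (-0.59 to -0.40) and with the replicate block.

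RNA was tested for the 424 of 648 genes that passed the expression filter. RNA values are relative to each library, and whether a gene changed in a part of the cells or in each cell cannot be told apart. Without the replicate number, edgeR's quasi-likelihood test called 1 of 424 (background 0.00668%, 1 of 14961 genes), with 45 of 424 under an unadjusted 0.05, and DESeq2 called 8 (background 0.938%). With the replicate number as a block edgeR called 109 (25.7%, background 14.4%), 53 higher (background 7.83%) and 56 lower (background 6.55%). The gene calls below are from this blocked fit unless stated. It called 15.4% of 11303 genes that start in a narrower peak. Genes in domains had more counts, a median of 1815 against 1191, and the part of this in the difference was not tested. Without replicate 1, 2 or 4 the blocked fit called 71, 60 and 61 of the genes in domains (16.7%, 13.9% and 14.1%, background 6.43%, 6.54% and 6.87%), and without replicate 3 it called 128 (30.2%, background 17.2%).

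The gene called by both fits was PAG1, a membrane adaptor that recruits the kinase CSK. PAG1 had 2.41, 2.34, 1.77 and 3.16 CPM with DMSO, in replicate order, and 15.4, 18.5, 11.04 and 19.8 with MS275. The groups did not overlap, and the log2 change was 2.72 (SE 0.20, adjusted p 4.9e-05 with the block and 0.0052 without). The call without the block was lost in 3 of 8 fits, without DMSO library 1 or 2 or MS275 library 2, and with the block in 0 of the 4 without 1 number. Its domain of 10500 bp was in a high-input bin, with H3K18cr at 27.5, 28.1 and 28.8 reads per kb with DMSO and 26.0, 30.2 and 32.5 with MS275, over 23.6 of input. Neither mark was called changed there (H3K18cr 0.07, limma adjusted p 0.84).

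The next largest rises were of SNAI3, a zinc finger factor of the Snail family (1.33), C1orf116 (1.12), VGF, a secreted neuropeptide precursor (1.07), NEAT1, the RNA scaffold of paraspeckles (1.02), COL1A1 (0.92), KIAA0513 (0.91), ZNF608 (0.84), CRISPLD2 (0.80) and AXIN2, the feedback inhibitor of Wnt signalling (0.75). VGF went from 60.7, 45.5, 63.9 and 40.3 CPM to 95.9, 103.5, 142.0 and 101.0, without overlap (SE 0.11, edgeR adjusted p 0.00013). NEAT1 overlapped between treatments but rose within each number, from 38.8, 26.6, 80.3 and 18.0 CPM to 70.5, 51.0, 190.4 and 38.4. COL1A1 is also among the stromal markers whose summed level was higher with MS275. None of these 9 was called without the block. Without the block NEAT1 gave 0.25 to 1.77 when 1 library was left out, and in the blocked fit without 1 number 0.93 to 1.10. The calls of SNAI3, C1orf116, ZNF608, CRISPLD2 and AXIN2 were each lost in 3 of the 4 fits without 1 number, and that of COL1A1 in 1.

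Among the falls, HOXB8 went from 62.8, 78.7, 84.1 and 70.4 CPM to 34.4, 45.0, 41.7 and 38.1, without overlap (-0.91, SE 0.09, edgeR adjusted p 8.7e-05 with the block and 0.27 without). The others with the largest falls were CLCF1, a cytokine of the LIF family (-0.98), HOXA10-AS (-0.93), FAM83H-AS1 (-0.91), TRIB3, a pseudokinase of the stress response (-0.69), LTBR, the lymphotoxin beta receptor (-0.68), LZTS2 (-0.66), FAM83H, a keratin-binding protein (-0.63), CALHM2 (-0.63) and SNCG (-0.62). FAM83H and FAM83H-AS1 share a domain, and whether counting used the strand is not given in the sources used here, so antisense genes are uncertain. HOXA10-AS gave -1.51 to -0.34 without the block when 1 library was left out, and -0.98 to -0.85 in the blocked fit without 1 number. The call of CLCF1 was lost in 3 of the 4 fits without 1 number and that of SNCG in 1. LTBR fell from 106.6, 127.8, 137.7 and 114.9 CPM to 56.8, 89.2, 83.4 and 80.5.

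**Figure D5:**
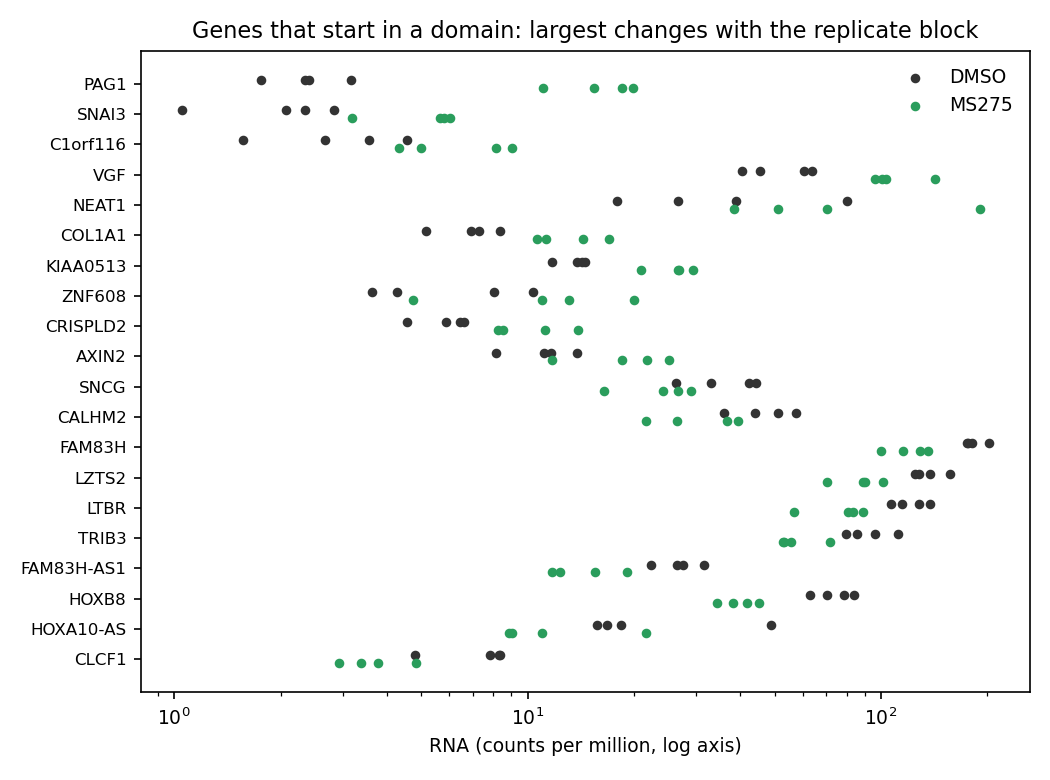
Points are CPM of each of the 4 DMSO (black) and 4 MS275 (green) libraries on a log axis for the 10 genes in domains with the largest rises and the 10 with the largest falls in the blocked fit. PAG1, VGF and COL1A1 are among those whose treatments separate, and NEAT1 and HOXA10-AS overlap between treatments.

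HOX genes, which set position along the body axis, had 4 of 39 members starting in a domain, and all 4 fell with the block. These were HOXB8, HOXB9 (-0.56), HOXB4 (-0.46) and HOXA9 (-0.29, edgeR adjusted p 0.042), in 3 domains that each had lower H3K18cr (60.9% of all domains with a gene start did). HOXB8 and HOXB9 share the domain on chr17:48608401-48629850, which changed by -0.68. Over the list 28 genes were tested, 6 fell and 0 rose (background 6.55% lower and 7.83% higher), with a median of -0.19. Leaving out 1 replicate number at a time ended the call of HOXB4 in 3 of 4 fits (-0.55 to -0.41) and that of HOXA9 in 3 of 4 (-0.36 to -0.22). Neighbouring HOX genes overlap, so their counts are not independent. Without the block 0 were called.

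Of 22 genes of MAPK feedback and growth signalling 7 started in a domain, and H3K18cr was lower in all 7 domains, against 60.9% of all domains with a gene start, while their RNA went both ways. EREG and AREG, neighbouring genes of EGF receptor ligands on chromosome 4, moved apart. EREG fell from 616.3, 642.0, 289.2 and 569.3 CPM to 453.4, 393.7, 204.5 and 344.3 (-0.61, SE 0.06, edgeR adjusted p 0.00015). AREG rose from 160.3, 153.0, 110.6 and 107.6 CPM to 236.2, 181.6, 192.1 and 139.6 (0.48, SE 0.09, adjusted p 0.0037). Both changed the same way in 4 of 4 pairs, and H3K18cr fell at both domains, by 0.53 and 0.45 on the log2 scale. DUSP5, a phosphatase of ERK (0.34), and IER3 (0.27) also rose, and DUSP4, DUSP6 and SPRY4, other inhibitors of the pathway, gave 0.06, 0.14 and -0.10 and were not called. Over the list 22 genes were tested, 6 rose and 2 fell (background 7.83% higher and 6.55% lower). The call of IER3 was lost in 3 of the 4 fits without 1 replicate number (0.18 to 0.32).

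Of 30 epithelial keratins and junction genes 6 started in a domain, in 5 domains that all had lower H3K18cr (60.9% of all domains with a gene start did), and 4 rose. KRT8 and KRT18, the keratin pair of simple epithelia, share a domain on chr12:52941601-52954500 where H3K18cr changed by -0.54. KRT18 went from 1126, 973.8, 1070.0 and 846.5 CPM to 1253, 1209, 1419 and 1079.7 (0.29, SE 0.06, edgeR adjusted p 0.0063). KRT8 (0.32), KRT19 (0.37) and ITGA6, an integrin of hemidesmosomes (0.37), rose too, while KRT80 (0.50, adjusted p 0.10) and LAMB3 (0.16) did not pass. KRT8 and KRT18 have many near-identical pseudogenes, so their counts may be shared. Over the list 30 genes were tested, 14 rose and 6 fell (background 7.83% higher and 6.55% lower). KRT19 was not called without replicate 2, at the low end of a range of 0.30 to 0.49. Without the block, leaving out 1 library gave 0.12 to 0.58 for ITGA6, 0.15 to 0.39 for KRT18, 0.21 to 0.43 for KRT8 and 0.21 to 0.47 for KRT19. In the blocked fit without 1 number ITGA6 gave 0.34 to 0.39, KRT18 0.24 to 0.36 and KRT8 0.28 to 0.38.

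Wnt targets had 7 of 21 genes starting in a domain. AXIN2, DKK1, a secreted Wnt inhibitor (0.33), and SOX9 (0.52) rose, and MYC (0.10, edgeR adjusted p 0.28), CCND1, CD44 and RNF43 did not pass. SOX9 went from 136.6, 216.5, 88.3 and 203.6 CPM to 223.9, 279.3, 122.6 and 303.3, higher in 4 of 4 pairs. H3K18cr was called lower in 3 of the 7 domains, below the 60.9% of all domains with a gene start. The domains of AXIN2, MYC, RNF43 and SOX9 lay in high-input bins, where 20.5% of all domains were called lower. Outside these bins 76.9% of domains with a gene start were. The domain of RNF43, an E3 ligase that clears Wnt receptors, was 50850 bp wide in a high-input bin and changed by 0.07. Over the list 17 genes were tested, 9 rose and 0 fell (background 7.83% higher and 6.55% lower). AXIN2 was not called in 3 of the 4 fits without 1 replicate number (0.62 to 0.97). DKK1 gave 0.15 to 0.49 without the block when 1 library was left out, and 0.31 to 0.35 in the blocked fit without 1 number.

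Among the 9 transcription factors in domains, SOX9 rose with the block, and ID3 (-0.37) and FOSL1 (-0.41, edgeR adjusted p 0.050) fell. The rest gave values from -0.05 at EHF to 0.35 at HES1 and were not called, and without the block 0 of 9 were. Over the list 35 genes were tested, 11 rose and 3 fell (background 7.83% higher and 6.55% lower), with a median of 0.25. The call of FOSL1 was lost without replicate 2 or 4 (-0.59 to -0.28 in the blocked fit, -0.64 to -0.09 without the block), and that of ID3 without replicate 1 (range -0.44 to -0.26). ID1, with the largest H3K18cr fall of the 9, had 406.9, 403.8, 323.1 and 320.1 CPM with DMSO and 354.1, 393.6, 387.9 and 336.2 with MS275 (0.01, adjusted p 0.95). Its RNA overlapped throughout.

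The remaining lists were of histone genes, of genes of H3K18 acylation and of p53 targets. Of 70 replication-dependent histone genes 8 started in 3 domains of chromosome 6, all 3 with lower H3K18cr (60.9% of all domains with a gene start), and of the 2 tested genes 0 were called. Their transcripts lack a poly(A) tail, which the RNA libraries selected for. Of 25 genes of writers, erasers and readers of H3K18 acylation 0 started in a domain, and 22 started in narrower peaks. Of 15 p53 targets only GDF15 did, with RNA at 0.15 (edgeR adjusted p 0.23) and H3K18cr at -0.53.

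Changes in H3K18cr and in RNA were set side by side for the same genes. Domains of genes called higher in RNA had a median H3K18cr change of -0.47, those of genes called lower -0.67 and those not called -0.54. Spearman's rho between the changes was 0.15 over 424 genes, which share domains and libraries. H3K18cr was called lower in 31 of the 52 domains at genes called higher in RNA, in 45 of 51 at genes called lower and in 169 of 253 at genes not called, against 60.9% of all domains with a gene start.

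Genes with the most bases in domains, chosen after their values were seen, included long genes covered by several. Of the 20 with the most, 5 were called lower (background 6.55%), 0 higher (background 7.83%) and 15 were not called. PCDH7 overlapped 8 domains that covered 71.9% of its length, and its RNA went from 103.9, 160.6, 104.1 and 190.2 CPM to 81.8, 105.3, 72.9 and 122.7 (-0.54, SE 0.07, edgeR adjusted p 0.00077). PDE4B fell from 109.3, 116.3, 59.4 and 117.1 CPM to 61.2, 53.1, 26.8 and 69.4 (-0.98, SE 0.09, adjusted p 7.3e-05). PDE4B was covered to 18.2%. MPP7 (-0.58), HMGA2, a chromatin protein of stem cells (-0.53), and PHLDB2 (-0.24, adjusted p 0.048) fell too. SMAD3, a mediator of TGF-beta, was covered to 75.6% and gave 0.21 (adjusted p 0.14), and MSI2, with 9 domains, gave -0.09.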

How the data were processed

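Of the series, 22 HCT116 libraries were used and the mouse samples were not. Per the labels, reads were trimmed with Trim Galore 0.4.2 and mapped with TopHat2 2.0.12 or Bowtie2 2.2.5 (versions from the submitters' processing notes) to GRCh38. The deposited ChIP table gives log2 values per peak, which the authors scaled in SeqMonk to the largest library. Undoing the log and the library factor gave whole reads for 100% of values (within 0.05 of a read), with 0.9 standing for 0 reads. The deposited RNA table holds raw counts per gene. Peaks came from a single MACS list, and which libraries called it is not given in the sources used here. The RNA kit was directional.

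Members and gene lists were chosen with earlier results of these data known. limma 3.58.1 was fitted to the log2 values of all peaks with at least 10 scaled reads in at least 3 libraries, with a variance trend and Benjamini-Hochberg adjustment, and edgeR 4.0.16 to the counts of all genes after its expression filter. A call is an adjusted p under 0.05. Alternatives used TMM or DESeq2 1.42.0, no filter, no trend, other widths, pseudocounts and overlaps, a replicate block and each library left out. RNA libraries of the same number deviated together (r = 0.23, 0.15, 0.44 and 0.46 from the group means), so blocked RNA values are given, although 2 of 8 libraries correlated best with one of another number (unlike numbers gave -0.42 to 0.24). The study's methods call the RNA replicates biological, and a paired test was used there on the ChIP libraries. The labels do not say that numbers mark a shared culture. The study's methods name fewer H3K18cr replicates of these cells than the libraries deposited, so whether all are independent is not known. Gene positions came from the RNA table, exon lengths from GENCODE 44 and promoters from RefSeq on GRCh38.p14. Domains were named by the 10 widest, the 6 largest changes, ratios, differences between marks and numbers of gene starts, and those next to the width limit. Genes were named by the lists, by starting in those domains, and by the 10 largest rises and falls with a mean of at least 100 counts. Both fits were tested on simulated data first. Scripts ran in Python 3.11.15 and R 4.3.3.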

Additional observations from a re-analysis of the deposited data

Results flagged for a closer look

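Of 155 groups of 4 RNA libraries examined for the genes chosen by the naming rule, 12 (11 genes) had a library set apart from the other 3 by a gap beyond Dixon's 95% critical value, and chance alone marks about 5 in 100 such groups. Values are CPM of the library set apart, followed by the range of the others. With DMSO these were CLCF1 at 4.79 (7.82 to 8.37), HOXA10-AS at 48.8 (15.7 to 18.4), DKK1 at 195.6 (408 to 447), HOXB9 at 37.7 (42.6 to 43.6), RP11-54O7.17 at 3.48 (0.52 to 0.85), LINC01089 at 4.99 (0.99 to 1.46) and NFKB2 at 89.3 (100.5 to 102.8). With MS275 they were SNAI3 at 3.18 (5.66 to 6.04), VGF at 142.0 (95.9 to 103.5), HOXA10-AS at 21.7 (8.86 to 10.95), TRIB3 at 71.9 (52.7 to 55.7) and BAHCC1 at 32.1 (50.9 to 53.8). HOXA10-AS was set apart in both treatments.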

How the results depend on the processing

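For H3K18cr the share of domains called lower was 45.7% (background 23%). It was 22.4% in DESeq2, near the background of 20.3% of the peaks it tested, and 24.6% with TMM (background 11.1%). In edgeR it was 25.2% and without the variance trend 19.1%, both without a background at hand. Over the domains of high-input bins alone it was 20.5%. The share called higher (0%) was 2.69% in DESeq2 (background 0.723%), 2.78% with TMM (background 1.94%) and 3.04% in edgeR. The median change (-0.37) was -0.13, -0.14 and -0.14 in the same order, and -0.16 in high-input bins. For H3K18ac the share called lower (18.3%, background 16.3%) was 27.7% with TMM (background 16.5%), 28.2% in edgeR and 7.72% without the trend. In high-input bins it was 10.0%. The share called higher was 5.72% in DESeq2 (background 1.67%), 8.59% with TMM (background 4.75%) and 8.41% in edgeR. The median H3K18ac change (-0.34) was -0.10 in DESeq2, -0.09 with TMM and -0.10 in edgeR. H3K18ac was called lower than H3K18cr in 0.0867% of domains with TMM. Leaving out 1 library at a time gave 25.8% to 64.0% for H3K18cr lower, 2.25% to 37.8% for H3K18ac lower, medians of -0.44 to -0.32 and -0.47 to -0.19, and differences in the share of peak reads of -1.12 to -0.55 and 0.06 to 0.32 percentage points.

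The difference in the share of H3K18cr reads (-0.74 points) changed sign in high-input bins (0.67) and, as a log2 ratio, against narrower peaks with a gene start (0.16), and that of H3K18ac (0.18 points) changed sign without high-input domains (-0.70). The cause was not tested. Same-numbered H3K18cr libraries correlated at 0.11, 0.07 and 0.23 and H3K18ac libraries at -0.21, 0.05 and -0.13 in their deviations, against -0.16 to 0.08 and -0.12 to 0.25 for unlike numbers, and 5 of 6 H3K18cr and 1 of 6 H3K18ac libraries correlated best with their own number. Not every pair passed 0.1, so the numbers were not taken to pair the libraries. With a replicate block 44.1% of domains were lower in H3K18cr and 1.21% in H3K18ac, and the differences in share were -0.74 and 0.18 points with an exact sign-flip p of 0.5 in each mark.

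Of RNA genes that start in a domain, 0.24% were called (background 0.00668%), against 1.90% in DESeq2 (background 0.938%). With the replicate block it was 25.7% (background 14.4%), and with the block in DESeq2 32.1% (background 19.1%). Genes that overlap a domain gave 0.13% (26.3% with the block), and domains of at least 15000 bp 0% (25% with the block). Leaving out a library gave 0% to 0.23%, and leaving out a replicate number from the blocked fit 16.7%, 13.9%, 30.2% and 14.1%. The share of domains with a gene start (36.3%) was 26.3% for expressed genes and 40.9% at 15000 bp, and the expression level (3.11 over all genes with a length) was 2.43 for genes that overlap and 3.59 for expressed genes. Of the called values for named domains and genes under the alternatives, 751 kept their direction and their side of the threshold, 644 kept their direction and fell below it, and 0 changed direction. Of named domains that were not called, 5 of 18 in H3K18cr and 6 of 29 in H3K18ac changed sign with TMM. Input depth, from 1 library per treatment, limits every ratio to input.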
